A study of Homo sapiens with 4 samples.

Results

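A set of 9 osteoblast genes was followed in U2OS cells, an established human osteosarcoma line, after knockdown of PURB, which encodes a protein that binds purine-rich single-stranded DNA and RNA. The genes were taken by symbol from the all-samples expression table: SPP1, RUNX2, SP7, ALPL, BGLAP, IBSP, DLX5, MSX2 and TNFRSF11B, which are 9 of 39519 named genes. The 2 sh-PURB libraries came from cells whose hairpin was induced by 5 µg/ml doxycycline for 72 h, and the 2 sh-NC libraries came from control cells given DMSO, for which no separate time is stated. Total RNA was freed of ribosomal RNA before sequencing. Because every sh-PURB library and no sh-NC library had doxycycline, knockdown and drug cannot be told apart. The labels name neither the hairpin sequences nor separate cultures, so each p-value reflects the scatter of these libraries alone, and that scatter may be technical.

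Osteoblasts arise from mesenchymal precursors under the transcription factors RUNX2 and then SP7 (osterix), with the homeobox factors DLX5 and MSX2 acting around them. Mature osteoblasts carry the alkaline phosphatase ALPL, which clears pyrophosphate so that mineral can form. They secrete the matrix proteins osteopontin (SPP1), bone sialoprotein (IBSP) and osteocalcin (BGLAP), and they restrain osteoclasts through osteoprotegerin (TNFRSF11B), a decoy receptor for RANKL.

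SPP1 and IBSP are neighbours in a cluster of bone and tooth matrix genes on chromosome 4, and their promoters are shown because one gene was expressed and the other was listed at 0 in every library. The sequences are from RefSeq (GRCh38.p14), plus strand, 5′ to 3′. The SPP1 stretch is chr4:87975464-87975649 and the IBSP stretch is chr4:87799304-87799553, each ending before the first transcribed base in the annotation used here. Capitals mark the RUNX core TGTGGT on the minus strand (read as ACCACA) in SPP1 and the homeobox core TAATTG on the minus strand (read as CAATTA) in IBSP.
SPP1: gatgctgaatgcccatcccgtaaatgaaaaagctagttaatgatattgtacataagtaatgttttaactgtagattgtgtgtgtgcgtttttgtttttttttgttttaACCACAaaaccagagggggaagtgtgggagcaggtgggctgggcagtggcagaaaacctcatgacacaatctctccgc
IBSP: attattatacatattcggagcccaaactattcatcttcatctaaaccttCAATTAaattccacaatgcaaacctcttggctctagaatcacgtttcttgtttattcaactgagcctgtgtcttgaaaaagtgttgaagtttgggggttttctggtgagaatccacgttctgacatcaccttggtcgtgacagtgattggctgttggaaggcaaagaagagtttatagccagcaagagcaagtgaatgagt

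Both strands of the 250 bases before each RefSeq start were searched for 4 motifs, and 6 of the 9 genes had an entry. The RUNX core stood once in SPP1, 142 bases before the start, and once in BGLAP, 163 bases before it. A RefSeq start can lie downstream of the gene start in the annotation used here. That holds for SPP1, whose core is still ahead of the annotated gene, and for BGLAP, whose core lies inside it. RUNX2 has a distal and a proximal start, and the distal one carried 2 RUNX cores, the first of them 191 bases upstream. Of 35116 promoter windows, 3855 held this core. The homeobox core TAATTG was found in IBSP alone of the 6 (6.70% of all windows), and the AP-1 site TGANTCA in the distal RUNX2 window alone (6.57% of all). A purine-rich repeat, the triplet GGN 4 times in a row, was in the proximal RUNX2 window and in 2 of 3 ALPL windows, against 18.0% of all windows. It was not in those of SPP1, MSX2, IBSP or BGLAP. The proximal RUNX2 window and some of the ALPL matches lie inside the annotated genes. MSX2 held none of the 4 motifs. A match describes letters only.

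The values are TPM, a length-scaled relative abundance from which sequencing depth cannot be recovered. Libraries had 22822 to 24156 genes above 0. Structured RNAs such as RN7SL1 and RN7SK took 65.2% and 63.2% of the total in sh-PURB cells, against 62.2% and 59.4% in sh-NC cells. Protein-coding genes took 25.3% and 25.6% in sh-PURB cells, against 25.8% and 26.9% in sh-NC cells. TPM is relative, so a difference in these shares can alter how many genes lie below 0. Their part in that count was not tested beyond the rescaled fits. PURB mRNA had 2.46 and 2.69 TPM in sh-PURB cells, against 5.29 and 6.55 TPM in the sh-NC libraries, with a limma adjusted p of 0.102 over all genes and 0.0313 in a fit to rescaled protein-coding genes.

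By the annotation used here (GENCODE release 29, GRCh38), SPP1 lies at chr4:87975650-87983426, IBSP at chr4:87799581-87812435, BGLAP at chr1:156241962-156243321, ALPL at chr1:21509372-21578412, RUNX2 at chr6:45328157-45664349 and MSX2 at chr5:174724533-174730893, all on the plus strand. SP7 at chr12:53326575-53345315, DLX5 at chr7:97020392-97024950 and TNFRSF11B at chr8:118923557-118952200 are on the minus strand. The TPM of each is a value for the whole gene.

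Most of the 9 genes were low in these cells. Of the 9 genes, 3 reached 1 TPM in each sh-PURB library and 4 in each sh-NC library. In order of mean TPM over the 4 libraries, SPP1 (19.2) stood far above RUNX2 (2.68) and TNFRSF11B (2.34), whose values overlapped. MSX2 followed (1.13), with its highest library below the lowest library of RUNX2 and of TNFRSF11B. BGLAP and ALPL, at means of 0.147 and 0.130 TPM, overlapped each other. SP7 was above 0 in 1 library, and DLX5 and IBSP were listed at 0 in all 4. Only RUNX2, MSX2, TNFRSF11B and SPP1 reached 1 TPM in any library, with MSX2 below 1 TPM in both sh-PURB libraries. The markers SP7, DLX5, IBSP, ALPL and BGLAP were at or near 0. The osteoblast label is therefore that of the list and is not shown by these values. In bulk RNA, fewer cells expressing a gene and less RNA per cell cannot be told apart.

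**Figure D1:**
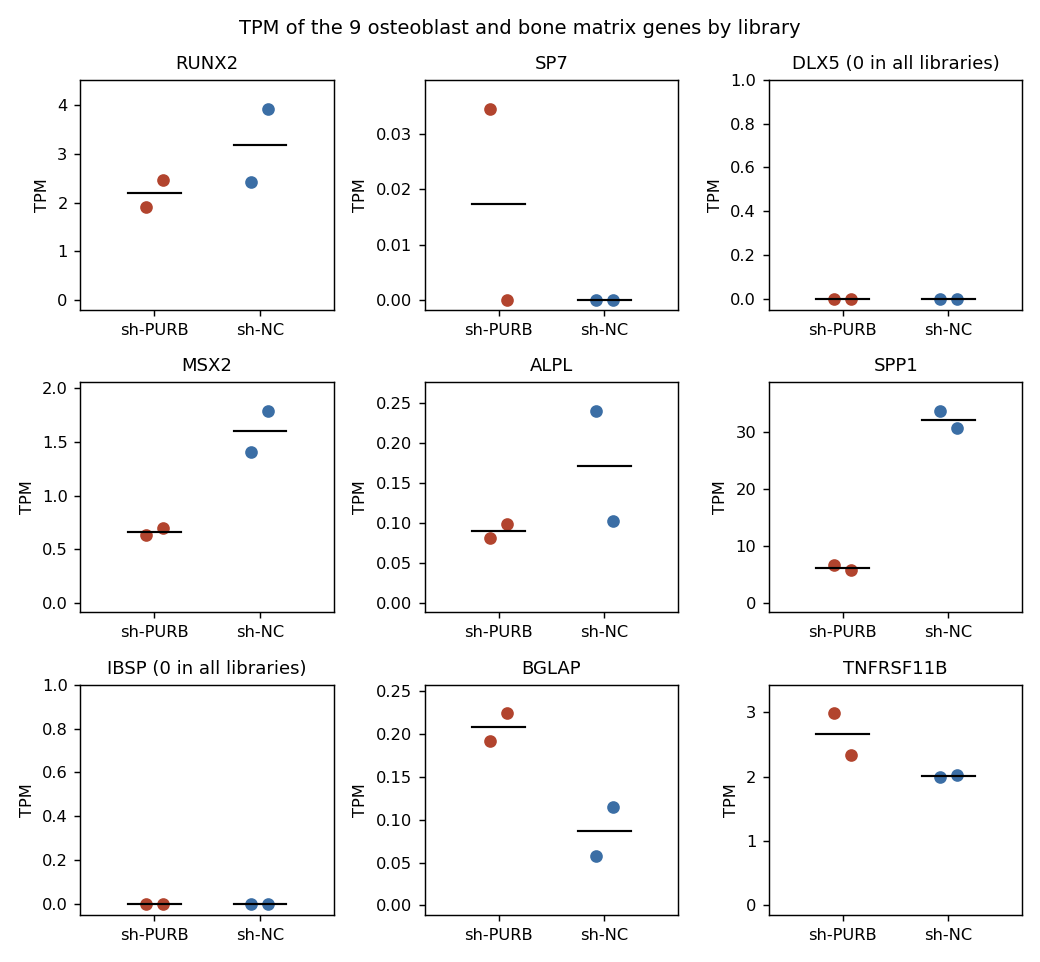
TPM of each of the 9 genes (vertical axes, each with its own scale) in the 2 sh-PURB and 2 sh-NC libraries (points, with the group mean as a line). SPP1 separates the groups most clearly, at 5.80 and 6.59 TPM in sh-PURB cells against 30.7 and 33.8 TPM in sh-NC cells, and DLX5 and IBSP are at 0 throughout.

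The matrix proteins come first, since they hold SPP1, the only member called. SPP1 encodes osteopontin, an acidic phosphoprotein that binds calcium and signals through integrins and CD44. Its sh-PURB libraries had 6.59 and 5.80 TPM, against 33.8 and 30.7 TPM in the sh-NC libraries. Both knockdown libraries lay far below both controls (below by any amount for 29.3% of all tested genes), and replicates within a group were close. The means were 6.19 ± 0.560 TPM in sh-PURB cells and 32.2 ± 2.18 TPM in sh-NC cells (SD, n = 2 each), 5.21-fold lower. On the log2(TPM + 1) scale SPP1 was lower by 2.21 (SE 0.132, 95% interval -2.55 to -1.87). Its adjusted p was 0.0374 over 14269 tested genes in limma, a linear model with moderated variances.

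Of the 9 genes 4 were tested, at 1 TPM or more in at least 2 libraries, and SPP1 alone passed. Over all tested genes 0.287% were called at an adjusted p under 0.05, with 0.203% lower and 0.0841% higher. Those calls were 12 higher and 29 lower, against 38 higher and 46 lower when TPM was recomputed without abundant and mitochondrial genes, and SPP1 was called lower in both. SPP1 ranked 5 by p-value, and 32 of the tested genes, itself included, had a log2 difference at least as far below 0. By exact permutation (two-sided) SPP1 had p = 0.333, and no smaller value is possible with 2 libraries in each group.

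Where SPP1 stood among protein-coding genes shows the size of the difference. In the sh-PURB libraries 68.5% and 63.8% of protein-coding genes had a lower TPM than SPP1, against 94.2% and 93.2% in the sh-NC libraries. SPP1 made up 53.0% and 49.9% of the summed TPM of the 9 genes in sh-PURB cells, against 84.6% and 79.4% in sh-NC cells. Without SPP1, the other 8 summed to 5.84 and 5.81 TPM in sh-PURB cells, against 6.13 and 7.96 TPM in sh-NC cells. The gap between groups in the summed TPM was mostly that of SPP1.

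The SPP1 call depended on the fit more than its size did. The adjusted limma p was 0.0533 with a pseudocount of 0.1, 0.185 without a filter on low values and 0.0640 without the intensity trend. It was 0.243 without sh-PURB replicate 1, 0.230 without sh-PURB replicate 2, 0.127 without sh-NC replicate 1 and 0.106 without sh-NC replicate 2, in fits with 1 residual degree of freedom. Among protein-coding genes alone it was 0.00175.

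**Figure D2:**
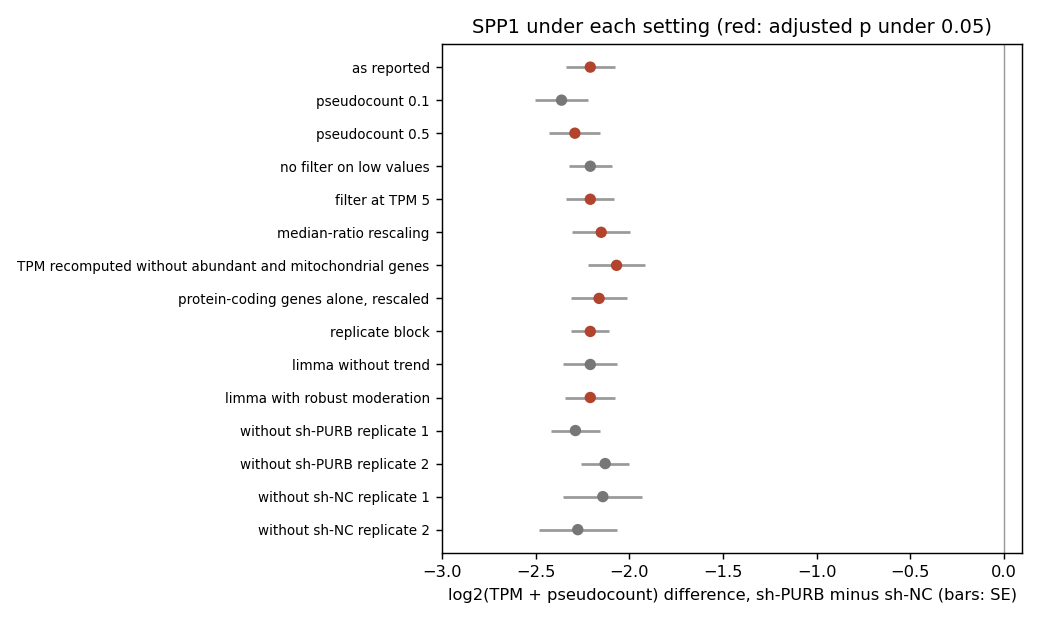
Difference of SPP1 in log2(TPM + pseudocount), sh-PURB minus sh-NC (horizontal axis), as reported and under each of 14 alternatives (rows), with standard errors as bars and red points at an adjusted p under 0.05. The difference runs from -2.36 to -2.07 over the alternatives, while 7 of them pass the threshold and 7 do not.

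IBSP, bone sialoprotein, a mineral-binding relative of osteopontin, was listed at 0 TPM in both sh-PURB and both sh-NC libraries. BGLAP, osteocalcin, a late and bone-specific hormone-like matrix protein, was at 0.192 and 0.224 TPM in sh-PURB cells, against 0.0578 and 0.115 TPM in the sh-NC libraries. Its groups did not overlap, as for 18.6% of tested genes in this direction. All 4 values were under the filter, so BGLAP is not among those tested genes and the share is only a rough guide. Without a filter the limma adjusted p was 0.437. BGLAP shares 398 exonic bases with the read-through gene PMF1-BGLAP, so its reads can be split between them. PMF1-BGLAP was at 1.13 and 0.752 TPM in sh-PURB cells, against 1.42 and 1.47 TPM in sh-NC cells, which is the opposite order. PAQR6, which shares 1 exonic base with BGLAP on the opposite strand, was at 1.11 and 2.64 TPM in sh-PURB cells, against 2.28 and 2.65 TPM in sh-NC cells. The sum of BGLAP and PMF1-BGLAP was 1.32 and 0.977 TPM in sh-PURB cells, against 1.47 and 1.58 TPM in sh-NC cells, so no direction is given for osteocalcin.

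The other matrix genes near SPP1 were low or at 0. Protein-coding genes within 500 kb were looked up, a window chosen after SPP1 was known to be lower in sh-PURB cells. DMP1 and MEPE, matrix proteins of osteocytes, stayed below 0.1 TPM in every library. SPARCL1, a matrix glycoprotein at the far end of the cluster, was at 0.0877 and 0.338 TPM in sh-PURB cells, against 0.976 and 1.73 TPM in sh-NC cells, and was below the filter. PKD2, a calcium-permeable channel whose gene starts 24242 bases downstream, was at 6.72 and 9.58 TPM in sh-PURB cells, against 11.6 and 14.5 TPM in sh-NC cells (log2 difference -0.63, limma adjusted p = 0.274). PPM1K and HERC6, further along, had differences of 0.06 and 0.01 with overlapping groups.

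**Figure D3:**
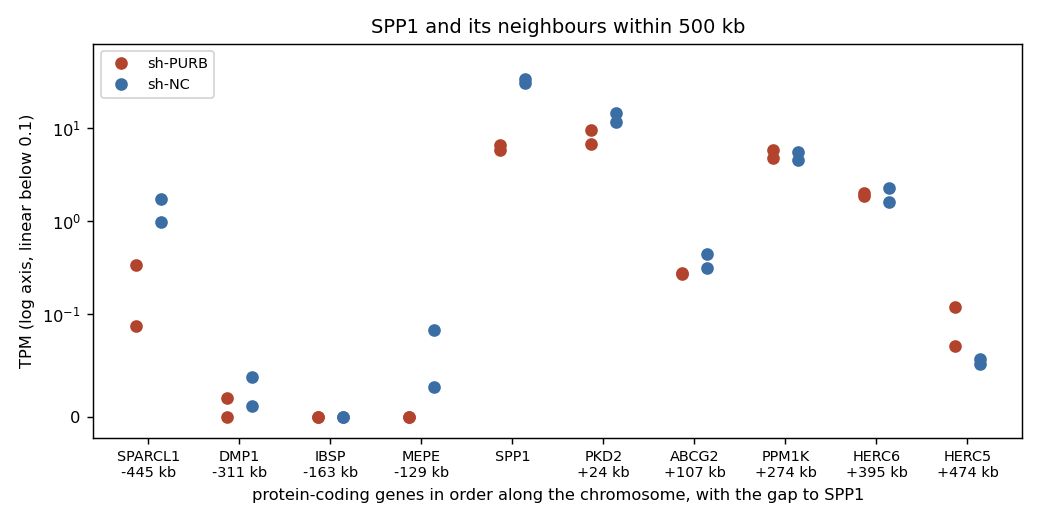
TPM (vertical axis, logarithmic above 0.1 and linear below) of SPP1 and the protein-coding genes within 500 kb, in chromosome order with the gap to SPP1 in kb, for the 2 sh-PURB and 2 sh-NC libraries (points). IBSP is at 0, DMP1 and MEPE are below 0.1, and SPP1 shows the widest gap between groups among the genes that reach 5 TPM.

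Among the transcription factors no member passed the test. RUNX2, the master regulator of the lineage, was at 1.92 and 2.46 TPM in sh-PURB cells, against 2.43 and 3.92 TPM in the sh-NC libraries. The groups overlapped, and the library numbered 2 was the higher of each pair. The mean was 0.689 of control (log2 difference -0.37, SE 0.248, 95% interval -1.01 to 0.27, limma adjusted p = 0.547). That interval includes 0, so the data do not show whether RUNX2 changed. RUNX2 overlaps SUPT3H and RUNX2-AS1 on the opposite strand without sharing exons, and both were below 0.2 TPM.

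MSX2, a homeobox repressor and BMP target, was at 0.630 and 0.694 TPM in sh-PURB cells, against 1.41 and 1.79 TPM in the sh-NC libraries. Both knockdown libraries were below both controls, as for 29.3% of all tested genes. The mean was 0.414 of control, with a log2 difference of -0.64 (SE 0.217, 95% interval -1.20 to -0.08). Its unadjusted limma p was 0.0323, and 9.53% of tested genes were lower at an unadjusted p under 0.05 (5.77% higher), and its adjusted p was 0.274. MSX2 passed the filter only through the sh-NC libraries, so its interval and p-values are a description. DLX5, an activator of RUNX2 and SP7, was listed at 0 TPM in all libraries. SP7, osterix, was at 0.0346 TPM in sh-PURB replicate 1 and at 0 in sh-PURB replicate 2 and in both sh-NC libraries.

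ALPL, tissue-nonspecific alkaline phosphatase, was at 0.0810 and 0.0984 TPM in sh-PURB cells, against 0.239 and 0.102 TPM in the sh-NC libraries. The lower control nearly met the higher knockdown library, and the gene was too low to be tested (limma adjusted p = 0.694 without a filter). TNFRSF11B, osteoprotegerin, was the one tested member with a higher mean in sh-PURB cells. Its sh-PURB libraries had 2.98 and 2.34 TPM, against 2.00 and 2.03 TPM in the sh-NC libraries. The groups did not overlap, as for 18.6% of tested genes in this direction, and the log2 difference was 0.27 (SE 0.190, 95% interval -0.22 to 0.76, limma adjusted p = 0.561).

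The RANKL axis that osteoprotegerin opposes was otherwise almost absent. TNFSF11, which encodes RANKL, and its receptor TNFRSF11A stayed at or below 0.0309 TPM in every library. TNFSF10, which encodes TRAIL, another ligand that osteoprotegerin binds, was at 0.102 and 0.364 TPM in sh-PURB cells, against 4.34 and 3.10 TPM in sh-NC cells. TNFSF10 passed the filter only through the sh-NC libraries, so its limma adjusted p-values, 0.0657 over all genes and 0.00709 among protein-coding genes alone, are a description. Of 7 tested osteoclast coupling signals, 6 lay below 0, and limma over all genes called 0. At an unadjusted p below 0.05, 2 were lower, TNFSF10 among them, where 9.53% of all tested genes were lower.

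Partners of RUNX2 and the osteopontin receptors were read from lists chosen with earlier results known. Over all tested genes 58.4% lay below 0 and the median log2 difference was -0.06, against which each list is set. That median was itself -0.01 without sh-PURB replicate 1, -0.11 without sh-PURB replicate 2, -0.10 without sh-NC replicate 1 and -0.02 without sh-NC replicate 2. Of 15 tested transcription partners 13 lay below 0 (median -0.26), or 8 with a median of -0.01 without sh-NC replicate 2, and the median was -0.46 without sh-NC replicate 1. CBFB, the subunit that RUNX proteins need to bind DNA stably, was at 18.3 and 14.5 TPM in sh-PURB cells, against 30.5 and 27.0 TPM in sh-NC cells (log2 difference -0.78, limma adjusted p = 0.119). RUNX3, a paralog of RUNX2, was at 0.879 and 1.26 TPM in sh-PURB cells, against 3.72 and 3.34 TPM in sh-NC cells (adjusted p = 0.0975 in limma, 0.0241 among protein-coding genes). ATF4, which acts with RUNX2 on osteocalcin, was at 264 and 217 TPM in sh-PURB cells, against 164 and 152 TPM in sh-NC cells (log2 difference 0.60, limma adjusted p = 0.131, or 0.0354 among protein-coding genes).

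Receptors for osteopontin were present, and none passed over all genes. Of 7 tested, 5 lay below 0, with a median of -0.22. At an unadjusted limma p under 0.05, 3 were lower, ITGB3 among them, where 9.53% of all tested genes were lower. ITGB3, the beta subunit of the vitronectin receptor, was at 0.499 and 0.917 TPM in sh-PURB cells, against 4.85 and 4.84 TPM in sh-NC cells (limma adjusted p = 0.0544, or 0.00528 among protein-coding genes). ITGB3 passed the filter only through the sh-NC libraries, so a gene like it could be tested only if it was higher there, and its p-values are a description. Its alpha partner ITGAV was at 25.5 and 29.6 TPM in sh-PURB cells, against 60.3 and 43.9 TPM in sh-NC cells (limma adjusted p = 0.130). CD44, named after its values were seen, was at 42.9 and 26.9 TPM in sh-PURB cells, against 28.8 and 36.8 TPM in sh-NC cells, with overlapping groups.

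Around ALPL, the 2 sodium-phosphate transporters had differences of opposite sign. SLC20A1, a sodium-dependent phosphate transporter, was at 64.8 and 49.5 TPM in sh-PURB cells, against 129 and 119 TPM in sh-NC cells, while its paralog SLC20A2 was at 11.8 and 12.1 TPM in sh-PURB cells, against 6.87 and 7.10 TPM in sh-NC cells. Their limma adjusted p-values were 0.0716 and 0.0987 over all genes, and 0.0121 and 0.0338 among protein-coding genes alone. ENPP1, which makes pyrophosphate, was at 1.16 TPM in both sh-PURB libraries, against 1.60 and 2.53 TPM in the sh-NC libraries (limma adjusted p = 0.407). Of the 6 tested genes of this list 5 lay below 0, and limma over all genes called 0. At an unadjusted p below 0.05 there was 1 gene in each direction, where 9.53% of all tested genes were lower and 5.77% higher.

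All 9 tested genes among other bone matrix and osteocyte genes lay below 0 in the fit over all genes (median -0.74), and 8 did in each of the 3 other scalings, in which SPARC lay above 0. None passed over all genes by limma. At an unadjusted p under 0.05, 5 were lower, MGP among them, where 9.53% of all tested genes were lower. In the fit to protein-coding genes alone 4 of the 9 were called lower, where 2.15% of all genes were lower and 1.33% higher. Those were FN1, FGF23, THBS1 and MGP, of which MGP passed the filter only through the sh-NC libraries. FN1, fibronectin, was at 9.47 and 12.8 TPM in sh-PURB cells, against 50.7 and 79.7 TPM in sh-NC cells (limma adjusted p = 0.0525 over all genes). MGP, an inhibitor of mineralization, was at 0.212 and 0.150 TPM in sh-PURB cells, against 4.74 and 2.17 TPM in sh-NC cells. FGF23, the phosphate-lowering hormone of osteocytes, was at 79.7 and 164 TPM in sh-PURB cells, against 534 and 454 TPM in sh-NC cells, above SPP1 in every library (limma adjusted p = 0.0887, or 0.0112 among protein-coding genes). A gene on the opposite strand spans FGF23, and with the strand setting unknown it could not be checked whether the FGF23 value includes reads of another transcript. SPARC, osteonectin, named after its values were seen, was at 220 and 262 TPM in sh-PURB cells, against 254 and 235 TPM in sh-NC cells, with overlapping groups. The median of this list was -1.21 without sh-PURB replicate 2, -1.10 without sh-NC replicate 1 and -0.49 without sh-NC replicate 2.

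Upstream inputs were set beside MSX2, which BMP signals induce. Of 19 tested BMP pathway genes 18 lay below 0, with a median of -0.43 (9 lower and 1 higher at an unadjusted limma p under 0.05, where 9.53% of all tested genes were lower and 5.77% higher), and none was called over all genes. The BMP median was -0.30 without sh-PURB replicate 1 (15 genes below 0) and -0.62 without sh-PURB replicate 2 (18 below 0). It was -0.53 without sh-NC replicate 1 (17 below 0) and -0.33 without sh-NC replicate 2 (16 below 0). The BMP target ID1 was at 44.2 and 62.3 TPM in sh-PURB cells, against 165 and 211 TPM in sh-NC cells (limma adjusted p = 0.0544), and the inhibitor NOG at 4.27 and 3.20 TPM in sh-PURB cells, against 9.28 and 13.3 TPM in sh-NC cells (limma adjusted p = 0.0896). Among protein-coding genes alone, where 2.15% of all genes were called lower, 5 of them were: ID1, ID3, SMAD7, NOG and ID2, the last named after its values were seen. Of 13 tested Wnt and hormone inputs 10 lay below 0 (median -0.22), and none was called by limma (4 lower at an unadjusted p under 0.05, against 9.53% of all tested genes). That median was -0.13 without sh-PURB replicate 1, -0.37 without sh-PURB replicate 2 and -0.12 without sh-NC replicate 2, with 8, 13 and 9 genes below 0. AXIN2, a target and brake of Wnt signalling, was at 1.53 and 2.04 TPM in sh-PURB cells, against 4.03 and 4.29 TPM in sh-NC cells (limma adjusted p = 0.129, or 0.0455 among protein-coding genes). The vitamin D receptor VDR, which drives BGLAP and SPP1 in bone cells, was at 0.904 and 1.11 TPM in sh-PURB cells, against 0.779 and 1.11 TPM in sh-NC cells. Of 4 tested genes of the vitamin D list 3 lay below 0 (median -0.26, 1 lower at an unadjusted limma p under 0.05, against 9.53% of all tested genes). VDR and LRP5 are in both this list and the Wnt and hormone list, so the 2 lists are not separate. The vitamin D median was -0.13 without sh-PURB replicate 1, -0.39 without sh-PURB replicate 2, -0.49 without sh-NC replicate 1 and -0.03 without sh-NC replicate 2, the last with 2 genes below 0. With TPM recomputed without abundant and mitochondrial genes the 8 list medians lay between -0.63 and -0.06, and the transcription partners below 0 numbered 10. Median-ratio rescaling and recomputed TPM each called 1 gene lower in the bone matrix list and 1 in the BMP list. Over all tested genes those fits called 46 of 14247 and 46 of 14210 lower. In the phosphate list ENTPD1 and in the BMP list BMP6, both named after their values were seen, passed the filter only through the sh-NC libraries.

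**Figure D4:**
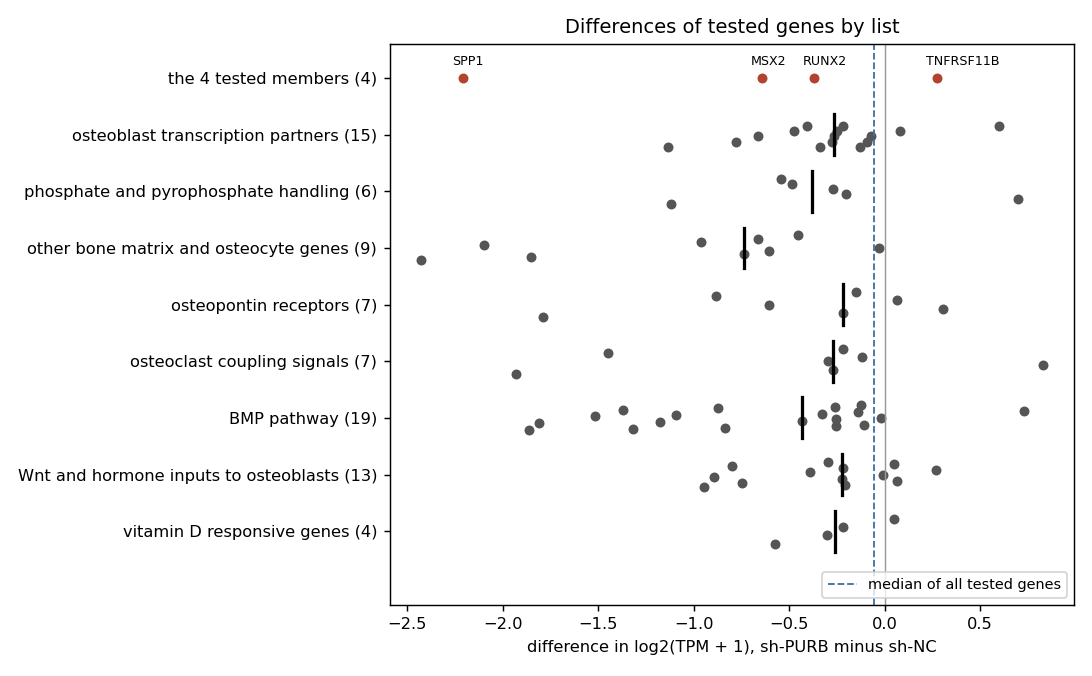
Difference in log2(TPM + 1), sh-PURB minus sh-NC (horizontal axis), of every tested gene (points) in the members and in 8 related lists (rows, with the number tested), with each list's median as a black bar and the median of all 14269 tested genes, -0.06, as a dashed line. SPP1 lies at -2.21, and the medians of the 8 lists lie between -0.74 and -0.22. VDR and LRP5 are drawn in both the Wnt and hormone list and the vitamin D list.

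Markers of other cell types overlapped between groups as summed TPM. Osteoclast markers summed to 4.02 and 4.89 TPM in sh-PURB cells, against 4.31 and 6.26 TPM in sh-NC cells, with OCSTAMP at 0. Chondrocyte markers summed to 19.1 and 34.6 TPM in sh-PURB cells, against 39.0 and 34.5 TPM in sh-NC cells, most of it HAPLN1. Macrophage markers (6.36 and 6.56 TPM in sh-PURB cells, against 5.83 and 10.4 TPM in sh-NC cells), adipocyte markers (14.6 and 10.6 TPM in sh-PURB cells, against 10.8 and 10.7 TPM in sh-NC cells) and skeletal muscle markers (1.84 and 3.06 TPM in sh-PURB cells, against 2.15 and 2.51 TPM in sh-NC cells) also overlapped. None of the 9 tested markers was called by limma at an adjusted or unadjusted p under 0.05.

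By centred log2(TPM + 1) profile over the 4 libraries, the 5 protein-coding genes nearest to SPP1 were CA9, SLC5A3, NDRG1, SYTL5 and SERPINA1, at Euclidean distances of 0.320 to 0.388. They include a carbonic anhydrase (CA9), an inositol transporter (SLC5A3) and alpha-1 antitrypsin (SERPINA1). CA9 was at 0 and 0.151 TPM in sh-PURB cells, against 3.91 and 3.02 TPM in sh-NC cells. It passed the filter only through the sh-NC libraries. SYTL5 was at 1.85 and 2.01 TPM in sh-PURB cells, against 10.1 and 12.0 TPM in sh-NC cells, the ratio of means closest to that of SPP1 among the 5 (0.174 beside 0.192). With 4 libraries in 2 groups, nearness mostly records a like difference between groups on the log2(TPM + 1) scale. It need not hold for TPM: the ratio of means was 0.0218 for CA9, against 0.192 for SPP1.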

How the data were processed

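RNA-seq of 2 sh-PURB and 2 sh-NC libraries of U2OS cells was analysed. The authors deposited TPM per gene symbol, and the all-samples table matched the 4 per-library tables in all 39520 rows, including a row with a blank name (0.921% to 1.66% of a library), which was left out. Tools listed per the submitters' processing notes are kallisto 0.44.0, bcl2fastq 2.19, DESeq2 and sleuth, and the builds listed are GRCm38 and GRCh38, none with a stated role. The annotation release and strand setting are not given in the sources used here.

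Groups came from the titles. Values as log2(TPM + 1), for genes at 1 TPM or more in at least 2 libraries, were compared in limma 3.58.1 (R 4.3.3) with a trended prior, and p-values were adjusted by Benjamini-Hochberg over the 14269 genes tested (threshold 0.05). Differences on this scale understate those of low genes. Positions and gene types came from GENCODE release 29 (GRCh38), and figures from matplotlib 3.10.9. The comparison was simulated in 20 data sets (14269 genes, 200 changed), with changes set in TPM + 1. Of these, 15.1% of the 2-fold and 62.3% of the 4-fold changes were recovered, and 5.03% of simulated calls were false. Simulated libraries varied independently, with no effect shared between them, so the false share need not hold for the calls reported here. The changed genes were drawn only from those with a mean log2(TPM + 1) above 2. RUNX2, MSX2 and TNFRSF11B lay below that, so the recovered shares do not cover them.

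All 9 members are named, then PURB, up to 4 tested genes of smallest unadjusted p from each list, genes whose exons overlap a member, and the 5 profiles nearest to SPP1. The SPP1 neighbours, the other genes overlapping RUNX2, TNFSF11, TNFRSF11A and single cell type markers fall outside this rule and were named after their values were seen. The members and lists were chosen with earlier results of these data known. Alternatives covered pseudocount, filter, scaling, gene set, replicate block, variance model and each library left out.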

Additional observations from a re-analysis of the deposited data

How the results depend on the processing

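SPP1 kept its direction in all 14 alternatives. Its difference was -2.36 with a pseudocount of 0.1 and -2.21 without a filter or without the limma trend, and in those 3 fits it and every other gene missed the threshold: 0 genes and 0 of the 9 members were called, against 41 and 1 as reported. At an unadjusted limma p under 0.05 those fits held 817 higher and 1338 lower, 1127 higher and 1904 lower, and 735 higher and 1354 lower genes. Leaving out 1 library gave 0 genes and 0 members called and SPP1 differences of -2.29 to -2.13, with 1 residual degree of freedom and 503 to 838 genes higher and 672 to 1509 lower at an unadjusted p under 0.05. The lone library is assumed there to vary like the other group. The genes called were 121 with a filter at TPM 5, 73 with median-ratio rescaling, 84 with TPM recomputed without abundant and mitochondrial genes, 415 among protein-coding genes alone and 125 with robust moderation. With the recomputed TPM the calls were 38 higher and 46 lower in place of 12 and 29, and the median of all genes was 0.07 in place of -0.06. The causes were not tested.

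With the replicate number as a block (replicate block) 118 genes were called and SPP1 had an adjusted p of 0.0239. Same-numbered libraries deviated together with a correlation of 0.193 over 14269 genes, but nothing in the labels pairs them. RUNX2, MSX2 and TNFRSF11B kept their direction and stayed short of the threshold in the 13 alternatives that tested them. A TPM keeps no depth, so for SP7, DLX5, IBSP, ALPL and BGLAP no detection limit can be given.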

Other observations

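FGF23 was listed at a higher TPM than the other bone genes examined in the sh-NC libraries, a value whose source transcript could not be checked, and genes of its pathway were looked up after it was seen. KL, the co-receptor klotho, was listed at 0 in every library. FAM20C, the secretory kinase that phosphorylates FGF23 and osteopontin, was at 3.18 and 5.69 TPM in sh-PURB cells, against 5.89 and 9.43 TPM in sh-NC cells (limma adjusted p = 0.399). FURIN, the protease that cleaves FGF23, was at 10.4 and 9.59 TPM in sh-PURB cells, against 14.1 and 13.3 TPM in sh-NC cells (limma adjusted p = 0.232), and GALNT3, which glycosylates FGF23, stayed below 1 TPM. TIGAR, the neighbouring gene, was at 13.8 and 9.53 TPM in sh-PURB cells, against 6.95 and 5.93 TPM in sh-NC cells (limma adjusted p = 0.210), the opposite order to FGF23. An opposite-strand gene, AC008012.1, spans FGF23 in the annotation without sharing exonic bases.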
